A study of Mus musculus with 25 samples.

Results

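The genes described here are the synaptic vesicle and SNARE genes of the mouse: the synaptotagmins (Syt), syntaxins (Stx), synaptobrevins (Vamp), Snap proteins, synapsins (Syn), syntaxin-binding proteins (Stxbp), Rab3 GTPases, complexins (Cplx), SV2 proteins, synaptophysin (Syp), synaptoporin (Synpr), Rims proteins and Unc13 proteins. They were taken by name, whatever their values, and 74 symbols matched: 72 of the 28446 genes with RNA values, 73 of the 23284 genes with ATAC-seq counts over exons, and 85 of 28329 regions around transcript starts, which belong to all 74 symbols. The name also takes in Snap91, which encodes the clathrin adaptor AP180 and no SNARE. From textbook knowledge, 37 members were classed as neuronal and 19 as widely expressed, and the other 18 were put in neither class.

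Cells were sorted by green fluorescent protein (GFP) from the retina of CD1 mice. GFP+ cells are labelled as retinal progenitor cells (RPCs) and GFP- cells as post-mitotic. The labels give no reporter allele, treatment or other genotype. They do not tell separate animals from repeat libraries, and p-values then cover no more than the spread among the samples, which may be technical. RNA came from 12 libraries, 2 for each sort at E14 and E18 (days of embryonic development) and at P2 (days after birth). ATAC-seq, a measure of open chromatin from the cuts of a transposase, was made from GFP+ cells only, in 1 library at E10 and in 2 at each of P2, P0, E18, E16.5, E14 and E12.5.

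At a synapse, a vesicle fuses when the vesicle SNARE Vamp2 zips together with Stx1a and Snap25 on the plasma membrane, with Unc13 and Rims proteins priming the vesicle, complexins clamping the complex and a synaptotagmin sensing calcium. Every cell uses related SNAREs for traffic between its membranes, so the family holds neuronal genes and genes of all cells side by side. Photoreceptors and bipolar cells release glutamate at ribbon synapses, which are known for using Stx3 and the complexins Cplx3 and Cplx4 in place of Stx1a and Cplx1 or Cplx2 and for lacking synapsins, while ganglion and amacrine cells carry the conventional set.

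The E14 libraries of both sorts stood apart. In E14 GFP- replicate 2, 12 pan-neuronal genes that are not members summed to 114.1 FPKM (fragments scaled by transcript length and library size), against 7709.2 in replicate 1, and 10 progenitor genes summed to 1993.9 against 135.7. This library also held 8 lens genes at a sum of 4728.1 FPKM, where E14 GFP+ replicate 2 held 127.3 and the other 10 libraries at most 4.17, so its values go against its label and it is called here the library labelled E14 GFP- replicate 2. The second of 2 E14 GFP- values is that library's wherever such a pair is given. E14 GFP+ replicate 2 correlated with that library at 0.978 and with its own replicate at 0.95 (Pearson, log2(FPKM + 1), across the genes tested, which are not independent replicates). Its progenitor genes differed from those of replicate 1, with Sfrp2 at 1459 FPKM against 238, Hes5 at 39.4 against 276 and Fgf15 at 256 against 1093. The E14 values of either sort therefore rest on replicates that differ. The GFP- sorts of E18 and P2 also held progenitor RNA, with those 10 genes at sums of 881.3 to 1247.8 FPKM against 2174.8 to 3962.8 in the GFP+ sorts of those ages. Their part in the sort differences was not tested, and in sorted bulk RNA fewer cells of a type and less RNA per cell cannot be told apart. In GFP- cells a photoreceptor sum of 10 genes was at 322.7 and 337.4 FPKM at E18 and 834.6 and 1619.0 at P2, and a ganglion cell sum of 10 genes at 747.9 and 880.0 and then 73.2 and 69.3.

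The members were tested with limma on log2(FPKM + 1) over all 12 libraries, with adjusted p over all genes and a threshold of 0.05. Leaving out E14 GFP- replicate 1 or 2 raised the number of members called at E18 from 0 to 44, beside 41.9% or 42.6% of all genes, and at P2 from 1 to 40, beside 23.5% or 23.9%. Each result at the later ages is therefore given also from a fit of the 8 libraries of E18 and P2 alone. Values in every library are given in the order of the replicates, and where values stand against each other without a label, GFP+ comes first and GFP- second. Differences are in log2(FPKM + 1) with the standard error, GFP+ minus GFP- for the sorts and P2 minus E18 for the ages, and the value is the same in both fits while its error is not. This scale understates differences of genes with low values.

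Upstream sequences of 6 members are shown because their start regions are described below: Syn1, Sv2c and Rab3c of the neuronal class, Stx6 and Vamp8 of the widely expressed class, and Syt16 of neither. They were chosen after their ATAC-seq values were seen. Each is the 250 bases before the RefSeq transcript start on GRCm38.p6, 5′ to 3′ on the strand of the gene. Capitals mark CCGCCC, the core of the GC box, and CAGCACC, a part of the RE1 element that the neuronal repressor REST binds, on either strand (GGGCGG and GGTGCTG on the other).
Syn1: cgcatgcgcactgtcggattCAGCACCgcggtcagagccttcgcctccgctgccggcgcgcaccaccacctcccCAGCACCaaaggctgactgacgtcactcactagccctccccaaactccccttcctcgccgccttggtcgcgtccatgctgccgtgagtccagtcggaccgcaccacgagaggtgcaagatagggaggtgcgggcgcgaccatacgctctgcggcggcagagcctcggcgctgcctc
Sv2c: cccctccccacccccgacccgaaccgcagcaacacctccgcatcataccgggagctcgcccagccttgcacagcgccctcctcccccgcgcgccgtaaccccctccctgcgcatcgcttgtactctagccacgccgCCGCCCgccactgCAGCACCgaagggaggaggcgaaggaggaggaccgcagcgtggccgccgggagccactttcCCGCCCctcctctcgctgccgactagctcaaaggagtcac
Rab3c: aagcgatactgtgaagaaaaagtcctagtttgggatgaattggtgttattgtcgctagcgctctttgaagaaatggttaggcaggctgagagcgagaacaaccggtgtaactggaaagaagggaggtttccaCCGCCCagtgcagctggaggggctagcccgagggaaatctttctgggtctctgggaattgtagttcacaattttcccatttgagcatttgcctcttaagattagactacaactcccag
Syt16: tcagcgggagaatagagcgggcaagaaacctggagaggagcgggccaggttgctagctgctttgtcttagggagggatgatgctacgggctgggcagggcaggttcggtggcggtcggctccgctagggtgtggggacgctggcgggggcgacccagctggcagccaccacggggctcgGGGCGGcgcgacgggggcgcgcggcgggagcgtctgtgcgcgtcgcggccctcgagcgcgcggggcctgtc
Stx6: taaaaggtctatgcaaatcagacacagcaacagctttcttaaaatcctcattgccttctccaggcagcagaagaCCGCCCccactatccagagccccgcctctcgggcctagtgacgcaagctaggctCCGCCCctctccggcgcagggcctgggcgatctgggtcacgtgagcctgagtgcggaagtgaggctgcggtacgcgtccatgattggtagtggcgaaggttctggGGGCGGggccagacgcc
Vamp8: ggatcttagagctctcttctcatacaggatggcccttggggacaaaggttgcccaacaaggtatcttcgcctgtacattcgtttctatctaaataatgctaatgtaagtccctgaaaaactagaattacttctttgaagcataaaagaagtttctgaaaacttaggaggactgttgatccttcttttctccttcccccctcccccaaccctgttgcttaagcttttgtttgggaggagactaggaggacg
The stretches lie at chrX:20920919-20921168, minus strand (Syn1), chr13:96132578-96132827, minus strand (Sv2c), chr13:110280207-110280456, minus strand (Rab3c), chr12:73997527-73997776, plus strand (Syt16), chr1:155158453-155158702, plus strand (Stx6) and chr6:72390668-72390917, minus strand (Vamp8).

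Syn1 carried CAGCACC 2 times, at 230 and 176 bases before the start, and Sv2c carried it at 101 bases before. Of the 74 upstream sequences found for 57 of the 74 members, 6 held CAGCACC (8.1%, against 5.7% of all 32851 promoters): those of Syn1, Sv2c and Syt10 among neuronal members, Stxbp2 among the widely expressed, and Stx11 and Syt15. CCGCCC was in 45 of the 74 (60.8%, against 32.7% of all). It was in 24 of 36 neuronal and 11 of 22 widely expressed promoters, and the median GC content was 60.8% and 58.6% in these classes against 52.4% over all promoters. Sequences of a gene with several starts overlap in part, and a match describes letters and not a bound site.

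The neuronal fusion core is taken first. Snap25, the SNARE that supplies a pair of helices to the complex, stood at 9.82 and 9.31 FPKM in E18 GFP+ cells against 127 and 138 in GFP- cells, and at 44.6 and 20.3 against 183 and 369 at P2. The E14 libraries held it at 9.88 and 0.956 (GFP+) and 366 and 1.26 (GFP-). The sorts did not overlap at E18 and P2, and at E14 the library labelled GFP- replicate 2 lay within the GFP+ range.
The difference was -3.66 ± 0.38 (adjusted p = 0.000115) at E18 and -3.07 ± 0.38 (adjusted p = 0.000606) at P2 in the limma fit of 8 libraries.

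Vamp2, the vesicle SNARE, was at 61.9 and 40.4 FPKM in E14 GFP+ libraries and 234 and 54.8 in those labelled GFP-, the second of which goes against its label. It was at 9.33 and 9.91 against 25.6 and 25.5 at E18 and at 62.2 and 66.3 against 179 and 207 at P2. In the GFP+ libraries of E14 and P2 Vamp2 was thus at 40.4 to 66.3 FPKM, where Snap25 was at 0.956 to 44.6. The difference between the sorts was -1.32 ± 0.11 (adjusted p = 4.32e-05) at E18 and -1.57 ± 0.11 (adjusted p = 3.44e-05) at P2.

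Stx1a, a syntaxin of the neuronal plasma membrane, was at 12.1 and 17.1 FPKM in E18 GFP- cells and 8.69 and 8.51 at P2, and at 3.08 and 2.53 and then 4.47 and 5.24 in GFP+ cells. The E14 libraries held Stx1a at 5.04 and 5.34 (GFP+) and 51.7 and 6.71 (GFP-), with GFP- replicate 1 above the other 3. In the fit of 8 libraries Stx1a fell in GFP- cells from E18 to P2 by 0.68 ± 0.19 (adjusted p = 0.0186). Vamp1, another vesicle SNARE, was at 1.16 to 7.05 FPKM, with its highest values, 4.76 and 7.05, in P2 GFP- cells. Of the 6 core genes, 5 were lower in GFP+ cells at E18 and the same number at P2 in the fit of 8 libraries, and Vamp1 passed at neither age. That fit called 25.6% of all genes lower at E18 and 17.7% at P2. In the fit of all 12 libraries none of the 6 passed, with adjusted p of 0.0928 to 0.373 at E18 and 0.131 to 0.636 at P2.

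**Figure D1:**
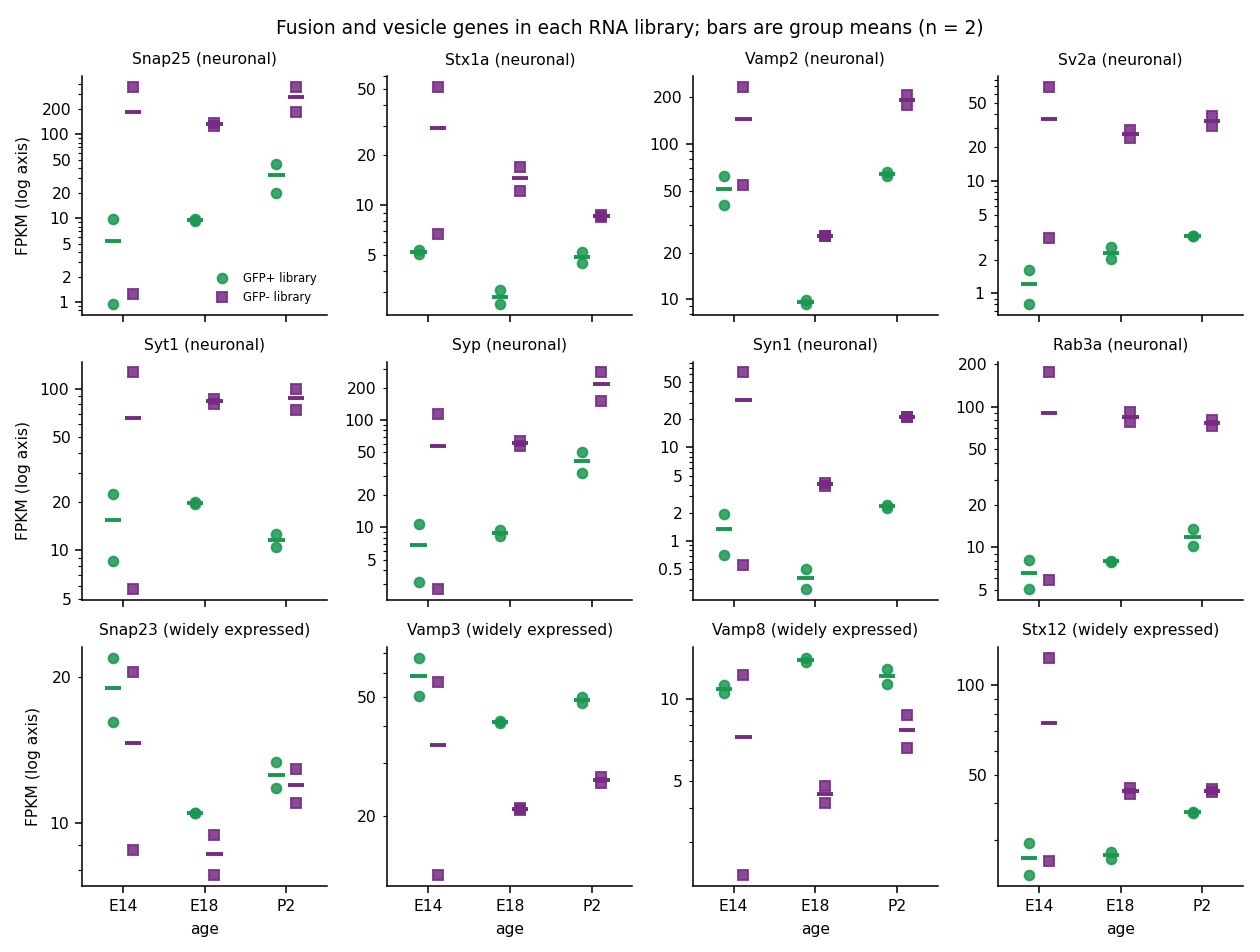
FPKM of 8 neuronal and 4 widely expressed members in each of the 12 RNA libraries, on log axes, by age and sort, with bars at the group means (n = 2). Neuronal genes lie higher in GFP- libraries at E18 and P2, for Snap25 at 127 to 369 FPKM against 9.31 to 44.6, while Vamp3 and Vamp8 lie higher in GFP+ libraries, and the low E14 GFP- point of each neuronal panel is replicate 2.

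Among the calcium sensors, Syt1, the fast sensor of most synapses, was at 19.5 and 19.8 FPKM in E18 GFP+ cells and 80.7 and 85.9 in GFP- cells. At P2 it was at 10.5 and 12.6 against 74.1 and 100.04, and at E14 at 22.3 and 8.55 against 126 and 5.73. Its difference was -2.03 ± 0.16 (adjusted p = 2.59e-05) at E18 and -2.80 ± 0.16 (adjusted p = 1.15e-05) at P2, and in GFP- cells P2 minus E18 was 0.05 ± 0.16 (adjusted p = 0.823), which did not pass. Syt6 was at 42.2 and 27.6 in P2 GFP- cells against 1.66 and 3.66 in GFP+ cells, a difference of -3.32 ± 0.28 (adjusted p = 8.54e-05).

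Syt7, a slow sensor with high affinity for calcium, was the member that passed between the sorts in the fit of all 12 libraries. It was at 0.436 and 0.641 FPKM in P2 GFP+ cells and 15.1 and 11.4 in P2 GFP- cells, and at 0.868 and 0.738 against 8.29 and 10.3 at E18. The P2 difference was -3.20 ± 0.56 (adjusted p = 0.034) over 12 libraries and the E18 difference -2.51 ± 0.56 (adjusted p = 0.05), which lies just above the threshold before rounding. Its call at P2 was lost without any 1 of the 8 libraries of E18 and P2 (adjusted p of 0.0823 to 0.252). Syt9 ranged from 7.77 to 20.8 FPKM over the libraries, and its sorts overlapped at E18 and P2. At E14 its GFP+ values, 19.8 and 10.5, lay above 7.77 and 8.24 in the libraries labelled GFP-. Syt10 stayed at or below 1.61 FPKM and Syt2 at or below 1.397, and Syt2 failed the filter on low values (1 FPKM in 2 libraries).

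The other synaptotagmins differed in their course. Syt4, known from dense-core vesicles, was at 138 FPKM in E14 GFP- replicate 1, at 67.7 and 77.3 in E18 GFP- cells and at 12.5 and 14.3 at P2, while GFP+ cells were at 2.55 and 2.32 and then at 0.613 and 1.13. Syt13 was at 125 in E14 GFP- replicate 1, 14.7 and 20.8 in E18 GFP- cells and 1.58 and 2.64 at P2. Like the ganglion cell sum given above, both were lower in P2 than in E18 GFP- cells. Within P2 the second GFP- library held the higher value of both genes, where that sum was the lower. The part of ganglion cells was not tested. Syt4 fell by 2.35 ± 0.17 (adjusted p = 3.59e-05) and Syt13 by 2.59 ± 0.22 (adjusted p = 7.28e-05) from E18 to P2 in GFP- cells in the fit of 8 libraries.
Syt11, a synaptotagmin that does not sense calcium, was at 40.1 and 41.4 in E18 GFP+ cells and 52.9 and 58.6 in GFP- cells, and at 99.7 and 69.6 against 46.2 and 54.7 at P2. The GFP+ values lay below the GFP- values at E18 (-0.44 ± 0.17, adjusted p = 0.0568, not passed) and above them at P2 (0.72 ± 0.17, adjusted p = 0.012), without overlap at either age. Its E14 libraries held 39 and 55 (GFP+) and 94.9 and 52.5 (GFP-).

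Among the vesicle proteins, Syp, the most used marker of synaptic vesicles, was at 8.38 and 9.37 FPKM in E18 GFP+ cells and 57 and 64.2 in GFP- cells, and at 50.8 and 32.2 against 151 and 277 at P2. Its E14 libraries were at 10.7 and 3.12 against 113 and 2.65. The differences were -2.64 ± 0.28 (adjusted p = 0.000141) and -2.31 ± 0.28 (adjusted p = 0.000606), and Syp rose in GFP- cells from E18 to P2 by 1.74 ± 0.28 (adjusted p = 0.00173) in the fit of 8 libraries.
Rab3a, the vesicle GTPase that binds Rims, was in GFP- cells at 77.2 and 91.6 at E18 and 73 and 79.9 at P2, where GFP+ cells were at 7.9 and 7.99 and then at 13.4 and 10.2. The E14 libraries were at 8.09 and 5.01 against 175 and 5.85. Rab3a differed by -3.25 ± 0.15 (adjusted p = 5.22e-06) at E18 and -2.61 ± 0.15 (adjusted p = 1.36e-05) at P2.

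Of the SV2 proteins of the vesicle membrane, Sv2a was at 2.6 and 2.03 FPKM in E18 GFP+ and 24.5 and 28.4 in GFP- cells, and at 3.23 and 3.28 against 31.3 and 38.2 at P2. Its E14 libraries held 1.62 and 0.808 against 69.3 and 3.15. Sv2b, the form known from photoreceptor ribbons, was at 31.5 and 57 in P2 GFP- cells, and Sv2c, at 18.1 in E14 GFP- replicate 1, was at 1.71 and 0.304 by then. In E14 GFP- replicate 1 the order was Sv2a, Sv2c, Sv2b. In E18 GFP- cells Sv2b (30.2 and 29.1) lay just above Sv2a, at P2 their libraries overlapped, and Sv2c was the lowest at both ages.

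Syn1, the synapsin that ties vesicles to actin, was at 0.306 and 0.509 FPKM in E18 GFP+ and 4.2 and 3.86 in GFP- cells, at 2.44 and 2.27 against 20.9 and 21.1 at P2, and at 1.97 and 0.705 against 63 and 0.563 at E14. It rose in GFP- cells from E18 to P2 by 2.13 ± 0.15 (adjusted p = 2.74e-05) in the fit of 8 libraries, while Syn2 (1.66 and 1.47 to 0.619 and 0.618 FPKM) fell by 0.66 ± 0.15 and Syn3 (5.11 and 6.58 to 3.61 and 3.28) by 0.62 ± 0.19. All 12 vesicle proteins were lower in GFP+ cells at E18 in that fit and 10 at P2, the exceptions at P2 being Sv2c and Rab3d. Beside them, 25.6% of all genes were lower at E18 and 17.7% at P2. None of the 12 passed in the fit of all 12 libraries.

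Of the priming factors, Unc13a, the main priming factor of brain synapses, was at 3.87 and 3.7 FPKM in E18 GFP+ and 19.9 and 23 in GFP- cells, and at 4.97 and 4.82 against 15.1 and 24.5 at P2. Its E14 libraries held 5.22 and 1.57 against 36.3 and 1.62. Unc13b stood out from its paralogue in being at 13.9 to 43.2 FPKM in all 12 libraries, and it passed between the sorts at neither age. Rims2, a scaffold of the active zone, was at 2.84 and 2.69 against 15.1 and 14.6 at E18 and at 3.44 and 2.94 against 7.12 and 8.81 at P2, and at 3.06 and 2.13 against 13.5 and 1.62 at E14. Rims1 was discordant between the P2 GFP- replicates, at 27.7 and 5.86, where the library with the higher value held the lower photoreceptor sum. The part of cell types in this was not tested.

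The complexins differed in their course. Cplx1 was at 62.4 FPKM in E14 GFP- replicate 1, 9.16 and 12.7 in E18 GFP- cells and 8.91 and 6.99 at P2, while GFP+ cells were at 1.12 and 0.113, then at 0.678 and 0.454 and then at 1.83 and 0.939. The library labelled E14 GFP- replicate 2 held it at 0.180. Cplx3, of ribbon synapses, was at 3.47 and 4.2 in the E14 libraries labelled GFP-, and in GFP- cells at 10.2 and 8.87 at E18 and 33.7 and 79.6 at P2. In GFP+ cells it went from 1.72 and 0.972 through 2.37 and 2.42 to 15 and 9.75. Cplx4 was at most 0.70 FPKM up to E18 and at 2.28 and 6.91 in P2 GFP- cells.
Cplx2 was at 35 and 38.4 and then 84 and 166 in GFP- cells. In all of Cplx2, Cplx3 and Cplx4 the second P2 GFP- library, which held the higher photoreceptor sum, was above the first. Snap25 and Syp, among others, had that order too, while Cplx1, Rims1 and Syt6 had the other. The part of photoreceptors was not tested. Of the 11 tested genes of priming and the active zone, 9 were lower in GFP+ cells at E18 and 9 at P2 in the fit of 8 libraries. Among all genes, 25.6% were lower at E18 and 17.7% at P2 in that fit. Rims3 was lower at E18 and higher at P2.

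Of the widely expressed SNAREs, Vamp3, the cellubrevin of recycling endosomes, was at 40.7 and 41.5 FPKM in E18 GFP+ cells and 20.9 and 21.2 in GFP- cells, and at 47.7 and 50.1 against 27 and 25.7 at P2. At E14 it was at 50.1 and 67.4 in the GFP+ libraries and 12.7 and 56.2 in those labelled GFP-, with the higher value in the library that goes against its label. Vamp3 was higher in GFP+ cells by 0.93 ± 0.10 (adjusted p = 0.000149) at E18 and 0.87 ± 0.10 (adjusted p = 0.000459) at P2 in the fit of 8 libraries. Vamp8, the endobrevin of late endosomes, was at 14.1 and 13.7 against 4.78 and 4.16 at E18, at 12.9 and 11.4 against 6.61 and 8.74 at P2, and at 10.5 and 11.2 against 2.27 and 12.2 at E14. Its differences were 1.45 ± 0.16 (adjusted p = 0.000184) and 0.61 ± 0.16 (adjusted p = 0.0211).

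Snap23, the counterpart of Snap25 in most cells, was at 10.5 and 10.5 against 7.82 and 9.44 FPKM at E18 and at 11.8 and 13.4 against 11 and 13 at P2, with 16.2 and 21.9 against 8.82 and 20.5 at E14, and it passed between the sorts at neither age. Snap25 made up 93.6% to 97.6% of the Snap25 and Snap23 sum in the GFP- libraries other than the library labelled E14 GFP- replicate 2, where it was 5.8%, and 4.2% to 79.1% in the GFP+ libraries. Stx12, an endosomal syntaxin, was at 25.8 and 27.5 against 42.9 and 44.9 at E18 and 37.2 and 37.5 against 44.8 and 43.5 at P2, with 124 FPKM in E14 GFP- replicate 1 and 22.9 to 29.4 in the other 3 E14 libraries. Stx12 was lower in GFP+ cells at E18 (-0.70 ± 0.10, adjusted p = 0.000616), and at P2 the difference was -0.24 ± 0.10 (adjusted p = 0.104).

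Stx3, put in neither class because it serves epithelia as well as ribbon synapses, was at 3.74 and 4.82 FPKM in E18 GFP+ and 18.8 and 18.3 in GFP- cells, at 10.7 and 5.07 against 30.3 and 66.2 at P2, and at 3.38 and 10.5 against 8.4 and 12.5 at E14. Its difference was -1.90 ± 0.38 (adjusted p = 0.00334) at E18 and -2.45 ± 0.38 (adjusted p = 0.00187) at P2, and it rose in GFP- cells by 1.23 ± 0.38 (adjusted p = 0.0295). Some members named as widely expressed went with the neuronal side: Stx7, an endosomal syntaxin, was at 14 and 12.7 against 48.2 and 53.5 at E18, and Snap47 was at 21 and 23.7 against 50.7 and 70.1. Both, with Stx6 and Vamp4, were lower in GFP+ cells at E18 and at P2 in the fit of 8 libraries.

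The members are counted here by class. Over the 65 members that passed the filter of 1 FPKM in 2 libraries, 43 were lower and 4 higher in GFP+ cells at E18 in the fit of 8 libraries, where 25.6% of all genes were lower and 25.5% higher, and 39 were lower and 5 higher at P2, where 17.7% of all genes were lower and 16.2% higher. The 7 members under the filter were Stx19, Syt2, Syt8, Syt12, Syt15, Unc13d and Vamp5, with highest values of 0.085 to 1.397 FPKM. Of the 36 neuronal members tested, 32 were lower and 0 higher at E18, and 31 were lower and 1 higher at P2, with medians of -2.02 and -1.81. Of the 17 widely expressed members tested, 3 were higher and 5 lower at E18, and 3 higher and 4 lower at P2, with medians of -0.20 and -0.01, beside medians of 0.00 and 0.01 over all genes. By member, 30 neuronal genes were lower in GFP+ cells at both ages. The other 6 were Rims3, Sv2c (lower at E18 alone), Cplx4 (lower at P2 alone), and Syt9, Syt10 and Vamp1, which passed at neither age. The classes were set from textbook knowledge with earlier results of these data known, so their split is a description.

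**Figure D2:**
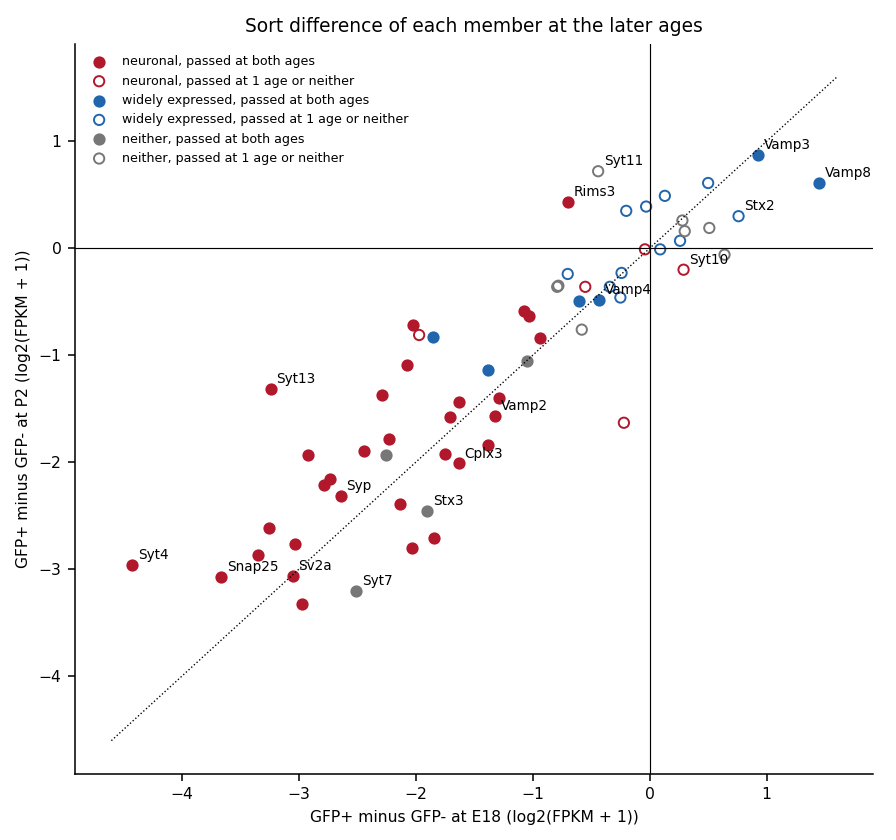
GFP+ minus GFP- in log2(FPKM + 1) at E18 (horizontal) and P2 (vertical) for each of the 65 members tested, coloured by class, with filled points for members that passed in the fit of 8 libraries at both ages. Most neuronal members lie in the lower left, Vamp3 and Vamp8 in the upper right, and Rims3 and Syt11 in the upper left.

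Over all 12 libraries 0 of the 65 members passed between the sorts at E14 and at E18, and 1, Syt7, at P2, where limma called 0% of all genes at E14, 3.61% at E18 (2.49% lower) and 1.49% at P2 (1.37% lower). At an unadjusted p below 0.05 there were 11 members at E14, beside 15.7% of all genes, 27 at E18, beside 29.7%, and 20 at P2, beside 15.7%, so the count at E14 is near the background. With limma array weights, which gave each E14 GFP- library a weight of 0.10, 52 members passed at E18, beside 57.8% of all genes, 41 at P2, beside 27.2%, and at E14 still 0, beside 0% of all genes. The libraries of the sorts did not overlap for 51 members that lay lower and 9 that lay higher in GFP+ cells at E18, where 39.4% and 39.6% of all genes did so, and for 47 and 11 at P2, where 32.4% and 34.5% did.

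At E14 the replicates disagreed. Without overlap of the sorts 15 members lay lower and 2 higher in GFP+ cells, as did 15.9% and 18.7% of all genes. Within replicate 1 the median GFP+ minus GFP- difference was -2.85 over the 36 neuronal members and 0.06 over the 17 widely expressed members, and 33 of the 36 lay lower in GFP+ cells. Within replicate 2 the medians were -0.06 and -0.12, and 21 of the 36 lay lower. Without the library labelled E14 GFP- replicate 2, 43 members were lower and 6 higher in GFP+ cells, beside 48.5% of all genes called, with 1 GFP- library assumed to vary like the other groups. E14 GFP- replicate 1 also held 5 erythroid genes at a sum of 1251.1 FPKM, against at most 75.9 in the other 11 libraries.

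GFP- cells of P2 were compared with those of E18. Over 12 libraries 7 members were higher at P2 and none lower, where limma called 5.90% of all genes higher and 5.21% lower: Vamp2 (2.86 ± 0.54, adjusted p = 0.0132), Cplx3 (2.33 ± 0.39, adjusted p = 0.00762), Cplx4 (1.63 ± 0.36, adjusted p = 0.0243), Stxbp2 (1.17 ± 0.19, adjusted p = 0.00706), Syt10 (1.08 ± 0.18, adjusted p = 0.00717), Vamp1 (0.93 ± 0.24, adjusted p = 0.045) and Stx16 (0.74 ± 0.19, adjusted p = 0.0435). Stxbp2, a Munc18 of secretory cells, was at 22.6 and 27.4 FPKM and then 49.1 and 67.2, and the Golgi syntaxin Stx16 at 19.5 and 24.9 and then 32.8 and 42.9. These calls rested on single libraries: without E18 GFP- replicate 1 none of the members passed, without E18 GFP- replicate 2 or P2 GFP- replicate 2 there was 1, and without P2 GFP- replicate 1 there were 3. Without E14 GFP- replicate 1 there were 27, beside 32.1% of all genes, and without replicate 2 there were 28, beside 32.7%. The photoreceptor and ganglion cell sums given above also differed between these libraries, and their part was not tested.
In the fit of 8 libraries 18 members were higher and 15 lower, beside 20.6% and 22.3% of all genes, so both counts are near the background. Among the rises were Vamp2, Cplx3 and Syn1, and among the falls Syt13, Syt4, Sv2c (-1.30 ± 0.29) and Syt5 (-1.26 ± 0.17). Syt5 was at 18.4 and 21.5 FPKM in E18 GFP- cells and 8.31 and 7.16 at P2.

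**Figure D3:**
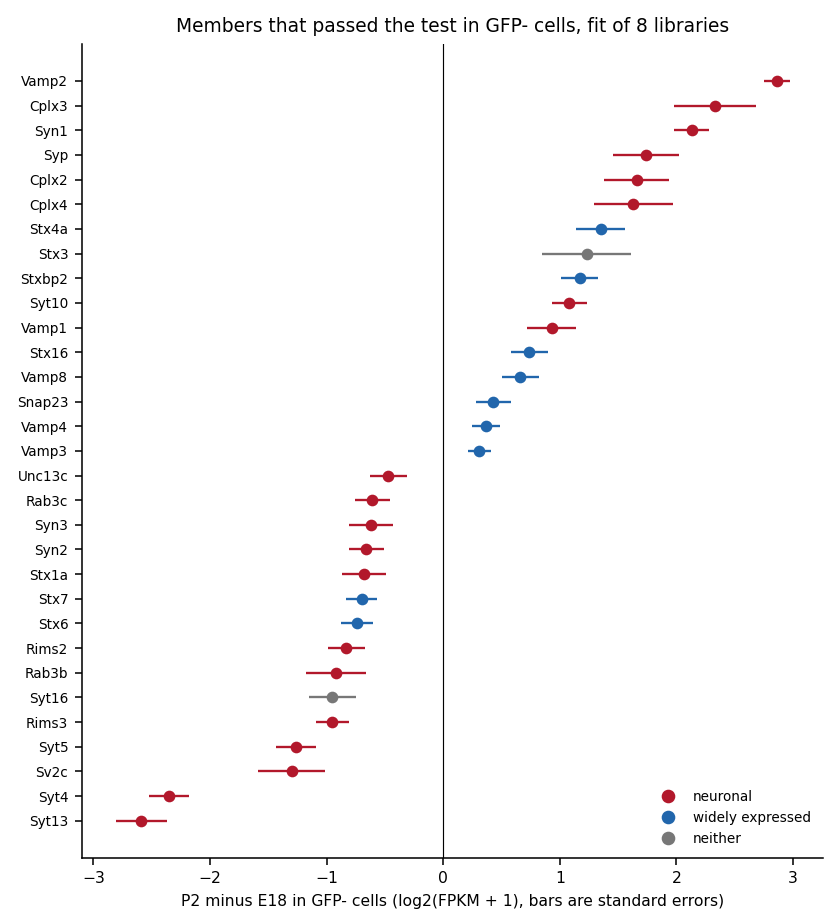
P2 minus E18 in GFP- cells, in log2(FPKM + 1) with standard errors, for 31 of the 33 members that passed in the fit of 8 libraries. Vamp2 stands at the top with 2.86 and Syt13 at the bottom with -2.59, and both ends are held by neuronal members.

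GFP+ cells were compared over the same ages. In 21 of the 65 members all E18 libraries lay below all P2 libraries within each sort, as they did for 24.6% of all genes, and in 14 they lay above, as they did for 27.4%. The 21 included Vamp2, Syp, Syn1, Snap25 and Stx4a. Stx4a, a plasma membrane syntaxin of most cells, was at 6.57 and 7.77 FPKM in E18 GFP+ and 22.7 and 20.3 in P2 GFP+ cells, and at 4.03 and 5.63 and then 11.3 and 16.7 in GFP- cells. Age and the set of libraries cannot be told apart here.

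Whether the sort difference itself changed from E18 to P2 was tested as an interaction. Over 12 libraries no member passed, where limma called 0.0981% of all genes (0.028% higher, 0.07% lower), and 2 members had an unadjusted p below 0.05, beside 3.24% of all genes. In the fit of 8 libraries 6 members passed, all toward higher values in GFP+ relative to GFP- cells at P2, beside 2.21% of all genes in that direction and 0.829% in the other: Syt13 (1.93 ± 0.31, adjusted p = 0.0194), Syt4 (1.46 ± 0.25, adjusted p = 0.0219), Stx1a (1.30 ± 0.26, adjusted p = 0.0392), Syt11 (1.16 ± 0.24, adjusted p = 0.0416), Rims3 (1.13 ± 0.20, adjusted p = 0.0283) and Stx7 (1.02 ± 0.19, adjusted p = 0.0281). For Syt13, Syt4 and Stx1a the GFP- values fell from E18 to P2, and the GFP+ values moved as well. In GFP+ cells the mean of Syt13 fell from 0.95 to 0.23 FPKM and that of Syt4 from 2.43 to 0.87. The GFP+ mean of Stx1a rose from 2.81 to 4.85 FPKM. The 1 added to each value shrinks differences more where values are low. Syt13 was at 0.198 and 0.267 FPKM in P2 GFP+ cells and 1.58 and 2.64 in P2 GFP- cells. Part of its change, and of that of Syt4, can come from this scale. Rims3, a short Rims form, was at 7.19 and 7.57 against 11.9 and 13.3 FPKM at E18 and at 7.8 and 9.22 against 5.82 and 6.28 at P2.
In GFP+ cells 1 member, Cplx3, was higher at P2 than at E14 over 12 libraries (limma, 2.5 ± 0.39, adjusted p = 0.0281), where 1.15% of all genes were called and 0.932% were higher. Cplx3 was not called without E14 GFP+ replicate 2, without either GFP+ library of P2 or without any 1 of the 4 libraries of E18. Without E14 GFP- replicate 1 or 2, libraries this comparison does not use, 17 members passed, beside 12.7% or 12.8% of all genes. GFP+ libraries of P2 held photoreceptor genes at sums of 246.5 and 139.0 FPKM, and their Cplx3 values, 15.0 and 9.75, had the same order. The part of photoreceptor RNA was not tested.

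The other genes of the pathway are given from the fit of 8 libraries. That fit called 25.6% of all genes lower and 25.5% higher in GFP+ cells at E18, and 17.7% and 16.2% at P2. Of 14 genes of the active zone and presynaptic scaffold, 13 were lower in GFP+ cells at E18 and 13 at P2, with medians of -1.77 and -1.47. Of 16 other synaptic vesicle genes, 13 were lower and 2 higher at both ages, the higher ones being Cadps2, a priming factor of dense-core vesicles (1.39 ± 0.17, adjusted p = 0.000302 at E18), and Sypl, a synaptophysin relative of non-neuronal cells (0.56 ± 0.12, adjusted p = 0.00394). Of 10 endocytosis genes, 7 were lower at E18 and 6 at P2. Of 12 genes for SNARE disassembly and other trafficking SNAREs, 3 were lower and 1 higher at E18, and 4 and 1 at P2. Over all 12 libraries 1 to 2 genes of the other vesicle list and 1 of the endocytosis list passed at E18 or P2, and 0 of the active zone and disassembly lists. Napb, the brain form of the adaptor that brings NSF to spent SNARE complexes, was at 5.62 and 6.19 FPKM in E18 GFP+ and 35.6 and 34.8 in GFP- cells.

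Other vesicle genes of GFP- cells are given by age. Slc17a6, the glutamate transporter VGLUT2 of ganglion cells, was at 52.4 FPKM in E14 GFP- replicate 1, 14.3 and 15.5 in E18 GFP- cells and 0.85 and 0.29 at P2. Slc17a7, the VGLUT1 of photoreceptors and bipolar cells, was at 4.02 and 3.44 and then 20.9 and 37.9. The P2 minus E18 differences were -3.36 ± 0.19 (adjusted p = 8.26e-06) and 2.63 ± 0.26 (adjusted p = 0.000154) in the fit of 8 libraries, and over 12 libraries Slc17a7 passed (limma adjusted p = 0.00205) and Slc17a6 did not (0.171). In the fit of 8 libraries Sncb, beta-synuclein, rose from 4.75 and 5.24 to 30.1 and 41.3 FPKM (2.60 ± 0.20, adjusted p = 4.45e-05), and over 12 libraries it did not pass (limma adjusted p = 0.151). Slc32a1, the transporter for GABA and glycine of amacrine and horizontal cells, was at 15.2 and 18.7 and then 28.5 and 29.2 in GFP- cells.

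The 5 genes outside the family whose log2(FPKM + 1) was most like that of Snap25 over the 12 libraries, among 11437 genes, were Rundc3a (Pearson's r 0.989), Sarm1 (0.985), Psg16 (0.983), Eid2b (0.982) and Riok3 (0.981). The points share libraries, and the coefficients are a description.

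Chromatin was measured in GFP+ cells only. In the central 400 bp of the start regions, the mean over the E12.5 to P0 libraries had a median of 17.4 CPM (counts scaled to the total of each library's regions) over 20 regions of widely expressed members and 7.75 over 46 regions of neuronal members, beside 4.54 over all 28329 regions. Of the 20, 18 were above the median of all regions, and of the 46, 33 were. The start of Syt1 was at 55.0 CPM, above 99.1% of all regions, that of Rab3a at 42.0, and that of Stx6, shown above, at 42.5. Syt1 and Rab3a were thus among the most accessible starts in GFP+ cells, and their RNA there was 8.55 to 22.3 and 5.01 to 13.4 FPKM.
Rab3c, at 30.6 CPM, had RNA of 0.13 to 0.80 FPKM in the GFP+ libraries. Vamp8, at 2.94 CPM and above 46.2% of all regions, had RNA of 10.5 to 14.1 FPKM in GFP+ cells, within the range of Syt1. Genes with several starts differed between them: 1 Synpr start was at 38.3 CPM and the other at 1.24, and 1 Syn2 start at 16.7 and the other at 0.13. The E10 library and P2 replicate 2 had low enrichment at starts, 6.4 and 12.2 times the flank, against 18.5 to 28.6 in the other 11 libraries. The means leave out E10 and both P2 libraries.

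**Figure D4:**
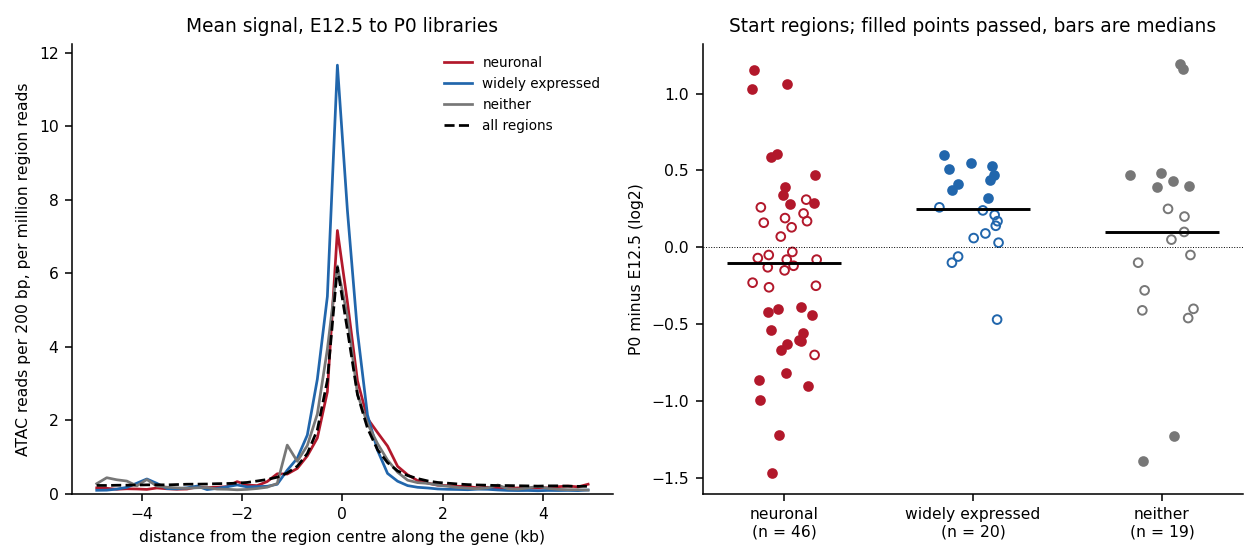
Left, mean ATAC signal per 200 bp window (CPM) against the distance from the region centre for start regions of each class and for all regions. Right, P0 minus E12.5 (log2) of each of the 85 start regions, with filled points for those that passed in edgeR and bars at the medians, 0.25 for widely expressed and -0.10 for neuronal members.

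Between E12.5 and P0, 26 of the 85 start regions of 10 kb were higher and 18 lower in edgeR, where 29.9% of all regions were higher and 32% lower. The share of higher members was near the background and the share of lower ones below it. Of 20 regions of widely expressed members 9 were higher and none lower (median 0.25), and of 46 regions of neuronal members 10 were higher and 16 lower (median -0.10), beside a median of 0.01 over all regions. The region of Syt16 (chr12:75093748-75103747 on mm9) was at 14.2 and 15.2 CPM at E12.5 and 33.4 and 33.6 at P0, a difference of 1.19 ± 0.13 (edgeR adjusted p = 1.7e-11). Its E14 values, 15.0 and 14.2, were like those of E12.5, and its E16.5 values were 31.6 and 29.7. The E10 library, which had low enrichment at starts, held this region at 35.5 CPM, so the course was not a steady rise. Both 10 kb regions of Syt6 were also higher (1.06 ± 0.13 and 1.03 ± 0.13), with 37.4 to 41.4 CPM at E18 and 58.5 to 65.9 at P0. In the central 400 bp Syt16 was at 4.08 and 3.94 CPM at E12.5 and 7.38 and 6.26 at P0, with 16.6 in the E10 library. The Syt6 starts were there at 2.02 to 3.19 at E12.5 and 4.12 to 5.83 at P0. Among widely expressed members the regions of Snap23 (0.53 ± 0.14), Stx2 (0.51 ± 0.13) and Vamp3 (0.47 ± 0.15) were higher too. Among neuronal members so were those of Cplx4 (1.15 ± 0.14), Cplx2 (0.47 ± 0.13) and Unc13a (0.39 ± 0.14). CPM of the 10 kb regions were scaled with the TMM factors that edgeR used, and those of the central 400 bp were not, so their levels are on different scales. Starts of 1 gene share windows and are not independent. The regions called numbered 27 without P0 replicate 1, beside 42.5% of all regions, and 28 without E12.5 replicate 2, beside 39.2%.

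Lower at P0 were the 10 kb start regions of Sv2c (chr13:96897532-96907531 on mm9, -0.82 ± 0.13), Synpr (-1.22 ± 0.22, the start with little signal), Cplx1 (-0.86 ± 0.19) and Snap25 (-0.60 ± 0.13 and -0.54 ± 0.13). The regions of Unc13d (-1.39 ± 0.16) and Stx19 (-1.23 ± 0.36), put in neither class, were lower too. The Sv2c region was at 41.3 and 43.9 CPM at E12.5, 34.2 and 32.6 at E16.5 and 23.7 and 24.7 at P0. The first of these Snap25 regions was at 56.9 and 56.3 at E12.5 and 35.3 and 39.7 at P0, and its E18 values, 37.1 and 35.9, lay beside those of P0. These sums take in the flanks of the start. In the central 400 bp Sv2c was at 9.61 and 8.9 CPM at E12.5 and 6.14 and 7.34 at P0. That of the first Snap25 region was at 10.95 and 10.26 at E12.5 and 7.07 and 11.45 at P0, with overlap. In the central 1 kb alone, Syt13 (-0.67 over 10 kb) was at 0.05. Syt1, Syn1, Vamp2 and Rab3a did not pass (-0.13 ± 0.18, -0.08 ± 0.13, -0.08 ± 0.13 and 0.22 ± 0.16).

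Over exons, 8 members were higher and 9 lower at P0 of 73 tested, where edgeR called 23% of all genes higher and 19% lower, so both shares were below the background. Snap23 (0.72 ± 0.17) and Vamp3 (0.59 ± 0.17) were among the higher and Rab3b (-0.80 ± 0.17), Rims1 (-0.75 ± 0.15) and Snap91 (-0.92 ± 0.15) among the lower. Leaving out P0 replicate 1 left 5 members, beside 14.9% of all genes, leaving out E12.5 replicate 2 left 9, beside 23%, and leaving out P2 replicate 1 or 2 gave 31, beside 58% or 58.6%. In the trend over all 7 stages 1 member passed, Snap23, at 0.14 ± 0.04 per stage (edgeR adjusted p = 0.0403), where 5.61% of all genes did (2.8% higher, 2.81% lower). Without P2 replicate 2 there were 18 members, beside 42.4% of all genes, without E10 there were 8, beside 9.12%, without E14 replicate 2 there were 3, beside 6.45%, and without any 1 of 8 other libraries there were 0.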

How the data were processed

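RNA values were deposited by the authors as FPKM per gene symbol. The unit was inferred from the values (383872 to 504845 per library), so read depth is unknown. ATAC-seq counts were deposited per gene, over exons (1474790 to 15915391 per library), and per 200 bp window on mm9. Windows were summed by 50 into 10 kb regions (11176227 to 94662422 counts), leaving out 7998 windows. The submitters' processing notes name Bowtie2, HISAT2, Picard 2.10.7, SAMtools 1.5, featureCounts 1.5.3 and bedtools 2.26.0, with mm9 and mm10, without their roles. The labels name polyA RNA but a total RNA kit.

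limma 3.58.1 (trend) was run on log2(FPKM + 1) for genes with at least 1 FPKM in 2 libraries (14276, 6 residual degrees of freedom), and edgeR 4.0.16 (quasi-likelihood, TMM, filterByExpr) on ATAC counts (6 residual degrees of freedom for stages, 11 for the trend). The limma fit of the 8 libraries of E18 and P2 kept 13874 genes and 4 residual degrees of freedom. DESeq2 1.42.0 was an alternative. Adjusted p is the Benjamini-Hochberg value over all features tested, with a threshold of 0.05. Both tools were tested on simulated data. R was 4.3.3.

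Values in every library are given for anchor genes and for members called, up to 8 each way with a mean of at least 5 FPKM. Others are named by their level, and some genes are counted but not reported by name here. Members and lists were chosen with earlier results of these data known. Promoters are from RefSeq (GRCm38.p6), matched by symbol. Of 43 on the plus strand 31 begin within an annotated transcript in this orientation, and of 31 on the minus strand 17.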

Additional observations from a re-analysis of the deposited data

Results flagged for a closer look

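For 3 members with a mean of at least 5 FPKM in a group the sort difference had opposite signs at E18 and P2 in every library. The change of the difference was 1.13 for Rims3, 1.16 for Syt11 and 0.55 for Stx8, in log2(FPKM + 1). None passed as an interaction over all 12 libraries (limma adjusted p = 1 for each). In the fit of 8 libraries Rims3 (adjusted p = 0.0283) and Syt11 (adjusted p = 0.0416) passed and Stx8 (adjusted p = 0.189) did not. Stx8, an endosomal syntaxin, was at 13.3 and 14.5 FPKM in E18 GFP+ and 14.6 and 17.8 in GFP- cells, and at 21.4 and 19.6 against 15.5 and 16.2 at P2.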

How the results depend on the processing

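Counts of members called are given with the share of all features called in the same setting. For the sorts at E18 (0 over 12 libraries, beside 3.61% of all genes) there was 1 without a filter on low values, beside 4.24%. Quantile scaling gave 1, beside 6.61%. Taking abundant noncoding, mitochondrial and histone genes out of the scaling gave 5, beside 7.03%. Array weights gave 52, beside 57.8%. The 8 libraries of E18 and P2 gave 47, beside 51.1%, and the 4 of E18 gave 53, beside 59.3%. For the sorts at P2 (1, beside 1.49%) there were 0 without a filter, beside 1.01%, and 0 with quantile scaling, beside 1.11%. The rescaling gave 3, beside 2.17%, array weights 41, beside 27.2%, and the 8 libraries 44, beside 34%. The 4 libraries of P2 gave 38, beside 25.1%, and a replicate block gave 0, beside 0.904%. In GFP+ cells from E14 to P2 (1, beside 1.15%) no filter and a replicate block both gave 0, beside 0.494% and 0.644%. Array weights gave 3 there, beside 7.3%. For GFP- cells from E18 to P2 (7, beside 11.1%) there were 24 with array weights, beside 35.2%, and 33 in 8 libraries, beside 42.9%. A replicate block gave 6, beside 10.7%. The interaction (0, beside 0.0981%) gave 1 with array weights, beside 2.05%, and 6 in 8 libraries, beside 3.03%. The cause of these moves was not tested, beyond the fewer libraries of the smaller fits.

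Over exons, P0 against E12.5 (17, beside 42% of all genes) gave 31 without the E10 and P2 libraries, beside 60.4%. The stage trend (1, beside 5.61%) gave 0 with a replicate block, beside 3.61%, and 6 with DESeq2, beside 11.3%. Without the E10 and P2 libraries the trend gave 21, beside 38.2%. Whether replicate numbers pair the samples is not settled. Replicate deviations of the 2 sorts of an age correlated at 0.362 at E14, 0.111 at E18 and -0.558 at P2. Among all pairs of groups, most of which join different ages, 3 of 15 RNA and 3 of 15 ATAC pairs were over 0.1. The start regions (44, beside 61.9% of all regions) kept within 1.5 times under all settings other than leaving out 1 library. In the central 1 kb 3 starts changed sign, Syt8 to -0.95, Syt13 to 0.0533 and Syt17 to -0.83.

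Leaving out 1 library gave 0 to 49 members at E14, 0 to 44 at E18, 0 to 40 at P2, 0 to 17 for GFP+ cells, 0 to 28 for GFP- cells, 0 for the interaction, 5 to 31 over exons, 0 to 18 in the trend and 27 to 59 start regions. The share of all features called moved with most of these counts, so the ranges do not describe the members alone. With 2 libraries a group, unknown RNA depth and discordant E14 replicates in both sorts, the 12-library fit has little precision.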
